A study of Mus musculus with 10 samples.

Results

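The distal kappa V segments described here are 74 of the 162 Igkv segments that RefSeq annotates on mouse chromosome 6. They lie in the stretch of the immunoglobulin kappa light chain locus farthest from the J segments, and their starts run from position 67555636 to position 69197583 of chromosome 6 (mm10). A translocation junction counted for a segment when it fell within 500 bp of its annotated span. Another 5 segments of the same stretch, Igkv11-125, Igkv9-123, Igkv17-127, Igkv11-114 and Igkv1-117, were set aside and serve only for comparison, as do the 83 segments nearer to the J segments. Over 10 libraries, 871 junctions fell at the 74 members, of 5859 in the whole kappa locus (14.9%), and 52 of the 74 members had at least 1.

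The data are from high-throughput genome-wide translocation sequencing (HTGTS), which amplifies from a fixed break, the bait, and reads which other break, the prey, was joined to it. The bait break was cut by a zinc finger nuclease in the T cell receptor beta locus of chromosome 6. Distances from the bait were measured from position 41554901, the commonest end of the bait alignments. That position is not the cut itself, since bait bases up to 41554970 were kept in a junction printed below. All cells were Abelson-transformed pre-B cells of C57BL/6 background lacking Lig4, the ligase of classical end joining. All were arrested in G1 with imatinib for 48 h, and the nuclease was induced with doxycycline at 1 µg/ml from 24 h.

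The groups were etoposide (50 µM for 2.5 h, then 12 h of recovery, 2 libraries), IFN with etoposide, DRB with etoposide, AsiSI, DRB with AsiSI, IFN, DRB (1 library each) and untreated (2 libraries). Etoposide traps topoisomerase II on cut DNA, DRB blocks transcription elongation and was given 2 h ahead, and AsiSI is a restriction enzyme that was activated with 1 µM tamoxifen 20 h after doxycycline. IFN stands only in the library titles, with no agent, dose or time. Transformed lines are a limited model of normal pre-B cells, and the labels do not say whether libraries of a group came from separate cultures. Permutation and limma p-values between groups therefore measure the spread between these libraries, which may be technical. Fisher p-values compare counts of junctions. They hold no spread between libraries and treat each junction as independent.

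The libraries held 2039 to 13404 junctions each and 201 to 1730 kappa junctions each. Read names put them in 4 sequencing runs, which are called A (etoposide replicate 1 and untreated replicate 1), B (IFN, DRB and untreated replicate 2), C (the remaining 3 etoposide libraries) and D (AsiSI with and without DRB). The libraries of run A stood apart. Their prey alignments at the members had medians of 250 and 264 bp, against 76 to 85.5 bp in the other 8 libraries, so results are also given without them. Group and run cannot be told apart for AsiSI against untreated, nor for etoposide replicate 2 against untreated replicate 2, IFN with etoposide against IFN and DRB with etoposide against DRB, since these share no run.

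Kappa V segments are cut by the RAG recombinase at a recombination signal that follows the coding sequence. The signal is a conserved heptamer, a spacer and a nonamer. RAG leaves a hairpin-sealed coding end and a blunt signal end, and in normal cells both are rejoined by the classical pathway that needs Lig4. Kappa V segments lie in both orientations, so that some join J by deletion and others by inversion of the DNA between. In HTGTS a broken coding end and a broken signal end give prey reads that run in opposite directions from the cut.

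The strand of a segment is not part of the annotation used, and was read from the prey reads themselves. A segment was oriented where the pooled reads held a start codon at its beginning, a heptamer (CACNNTG) right behind its end or a nonamer core (ACANAAAC) farther behind, all in 1 direction. This oriented 26 members, of which 17 lie on the plus strand and 9 on the minus strand, and the 26 held 771 of the 871 junctions (88.5%). Of these 26, 17 rested on 2 or 3 of the features and 9 on a single feature. The other 48 members, 26 of them with junctions, remained without a strand and enter no count by side.

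The signals of the 6 most joined members are shown because their border between coding sequence and heptamer is the point from which junctions are measured. Each sequence runs 5′ to 3′ on the strand of the segment, and the capitals mark the heptamer and the 9 bases of the nonamer position. Each base is the consensus of 1 to 22 reads.
Igkv19-93: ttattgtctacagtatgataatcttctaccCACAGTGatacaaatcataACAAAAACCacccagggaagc
Igkv10-95: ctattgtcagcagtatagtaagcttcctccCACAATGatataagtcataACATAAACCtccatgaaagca
Igkv9-124: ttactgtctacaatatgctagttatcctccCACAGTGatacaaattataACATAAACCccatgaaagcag
Igkv1-135: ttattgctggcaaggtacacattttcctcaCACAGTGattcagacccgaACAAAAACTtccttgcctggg
Igkv4-80: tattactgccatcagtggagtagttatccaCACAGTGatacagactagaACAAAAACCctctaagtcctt
Igkv1-110: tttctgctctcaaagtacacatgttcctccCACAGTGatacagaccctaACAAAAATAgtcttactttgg

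In mm10 these are chr6:68736257-68736326 (minus strand) for Igkv19-93, chr6:68680819-68680888 (plus) for Igkv10-95, chr6:67942034-67942103 (minus) for Igkv9-124, chr6:67610479-67610548 (plus) for Igkv1-135, chr6:69016518-69016587 (minus) for Igkv4-80 and chr6:68271238-68271307 (plus) for Igkv1-110. A heptamer was read for 17 members, and 13 of the 17 (76.5%) had the form printed for Igkv19-93. The other 4 were 2 members of family 10, Igkv10-95 and Igkv10-96, which share the form printed for Igkv10-95, and 2 of family 2, Igkv2-116 and Igkv2-109, with CACACTG. The Igkv19-93 form was read in 3 of 4 set-aside segments and in 11 of 11 proximal ones. Where the nonamer core was also read, the spacer was 12 bases in 14 of 14 members, 3 of 3 set-aside segments and 10 of 10 proximal segments. The nonamer position of Igkv1-110 lacks the searched core, and its orientation rests on the start codon and the heptamer.

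Use was concentrated on a few members. The most joined, Igkv19-93, held 142 junctions (16.3% of the 871), the leading 5 held 456 (52.4%), the leading 10 held 627 (72.0%) and the leading 20 held 765 (87.8%). Igkv14-126 and Igkv9-120 had 10 junctions each, and the tie for the last of these 20 places was given to Igkv14-126, which starts farther from the J segments. At the other end, 22 members had no junction in any library and 27 had 1 to 5, and the median member had 3. The proximal segments had a median of 3 as well, over 1234 junctions at 83 segments, of which 61 were joined. The 5 set-aside segments had 85 to 230 each and 805 in all, so Igkv19-93 and Igkv10-95, at 142 and 105, lie within their range.

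**Figure D1:**
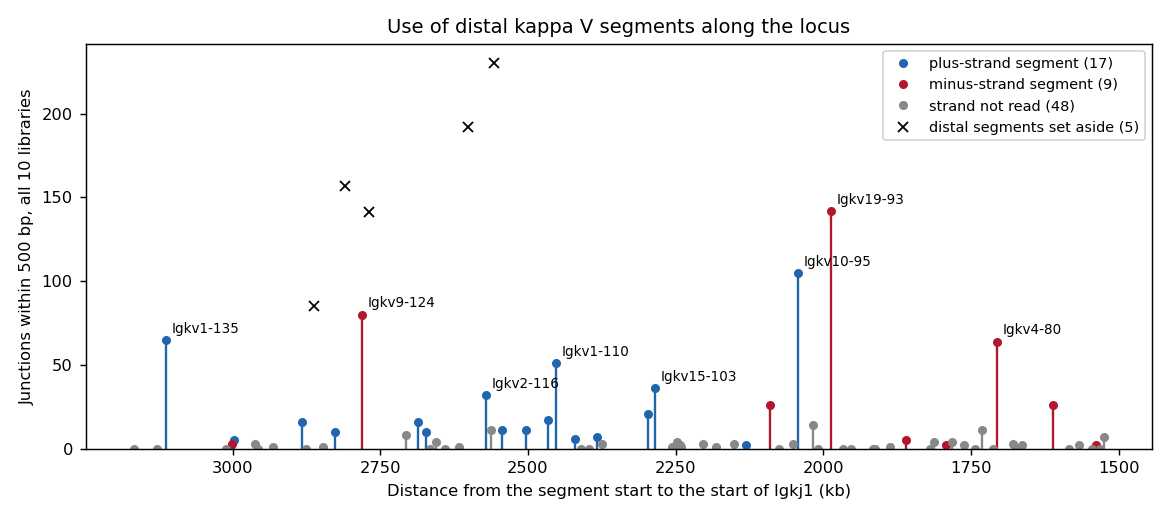
Junctions within 500 bp of each distal kappa V segment, summed over 10 libraries (vertical axis), against the distance of the segment start to the start of Igkj1 in kb (horizontal axis, most distal at the left); points and bars are single segments coloured by strand, crosses are the 5 set-aside segments. The leading members are spread over the stretch, from Igkv1-135 at 3113 kb to Igkv4-80 at 1706 kb, with many members at or near 0 between them.

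The leading members did not form a block. Igkv1-135 lies 3113 kb before Igkj1 and is the most distal of them. Igkv9-124 lies at 2780 kb, Igkv1-110 at 2452 kb, Igkv10-95 at 2042 kb, Igkv19-93 at 1986 kb and Igkv4-80 at 1706 kb. Without the 2 libraries of run A, 769 junctions remained (14.2% of 5421 kappa junctions), 50 members were joined and the leading 5 held 51.6%. Igkv19-93 and Igkv10-95 then still led with 133 and 91 junctions, and Igkv4-80 and Igkv9-124 had 61 each.

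Igkv19-93, the single segment of its family, had 6 and 18 junctions in etoposide replicates 1 and 2, 8 in IFN with etoposide, 0 in DRB with etoposide, 27 in AsiSI, 46 in DRB with AsiSI, 5 in IFN, 10 in DRB, and 3 and 19 in untreated replicates 1 and 2. It was the most joined member in 5 libraries, shared the lead in IFN with etoposide and had no junction in 1. The 0 in DRB with etoposide, of 208 kappa junctions, allows a share of up to 1.44%. By comparison, Igkv10-95 had 6 and 4 junctions in etoposide, 8 in IFN with etoposide, 5 in DRB with etoposide, 19 in AsiSI, 26 in DRB with AsiSI, 12 in IFN, 6 in DRB, and 8 and 11 in untreated. Igkv10-95 was found in all 10 libraries, as were Igkv9-124, Igkv1-135, Igkv4-80 and Igkv1-110.

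Igkv9-124 had 4 and 6 junctions in etoposide, 4 in IFN with etoposide, 2 in DRB with etoposide, 17 in each AsiSI library, 3 in IFN, 2 in DRB, and 15 and 10 in untreated. It led in untreated replicate 1, where it made up 26.8% of 56 member junctions. Igkv1-135, which led in etoposide replicate 1, had 9 and 7 junctions in etoposide, 5 in IFN with etoposide, 2 in DRB with etoposide, 10 in AsiSI, 17 in DRB with AsiSI, 6 in IFN, 1 in DRB, and 5 and 3 in untreated. The order of the leading members thus differed from library to library, and in the smaller libraries by counts of a few junctions.

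Igkv4-80 had 1 junction in each etoposide replicate, 8 in IFN with etoposide, 5 in DRB with etoposide, 15 in AsiSI, 17 in DRB with AsiSI, 7 in IFN, 2 in DRB, and 2 and 6 in untreated. Igkv1-110 had 2 in each etoposide replicate, 3 in IFN with etoposide, 1 in DRB with etoposide, 20 in AsiSI, 13 in DRB with AsiSI, 1 in IFN, 5 in DRB and 2 in each untreated replicate. The 2 AsiSI libraries were the deepest in kappa junctions (1288 and 1730), and for both members they held the highest counts.

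Igkv15-103 had 36 junctions in 8 libraries, with 13 in AsiSI and 10 in DRB with AsiSI. Igkv2-116, which RefSeq lists as a pseudogene, had 32, of which 13 were in AsiSI and 14 in DRB with AsiSI, and it had 0 to 2 in each of the other 8 libraries. Igkv10-96 ran the other way, with 26 junctions in all, 2 of them in AsiSI and 1 in DRB with AsiSI, but 2 and 4 in etoposide and 2 and 9 in untreated. Igkv4-77, also a listed pseudogene, had 26 as well, at most 7 in a library. Igkv16-104 had 21, of which 11 were in DRB with AsiSI, and Igkv14-111 had 17, with 5 there and 0 in AsiSI. The remaining 8 of the leading 20, Igkv9-129, Igkv17-121, Igkv10-94, Igkv1-115, Igkv2-113, Igkv2-112, Igkv4-81 and Igkv14-126, had 10 to 16 junctions each, in 4 to 8 libraries.

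**Figure D2:**
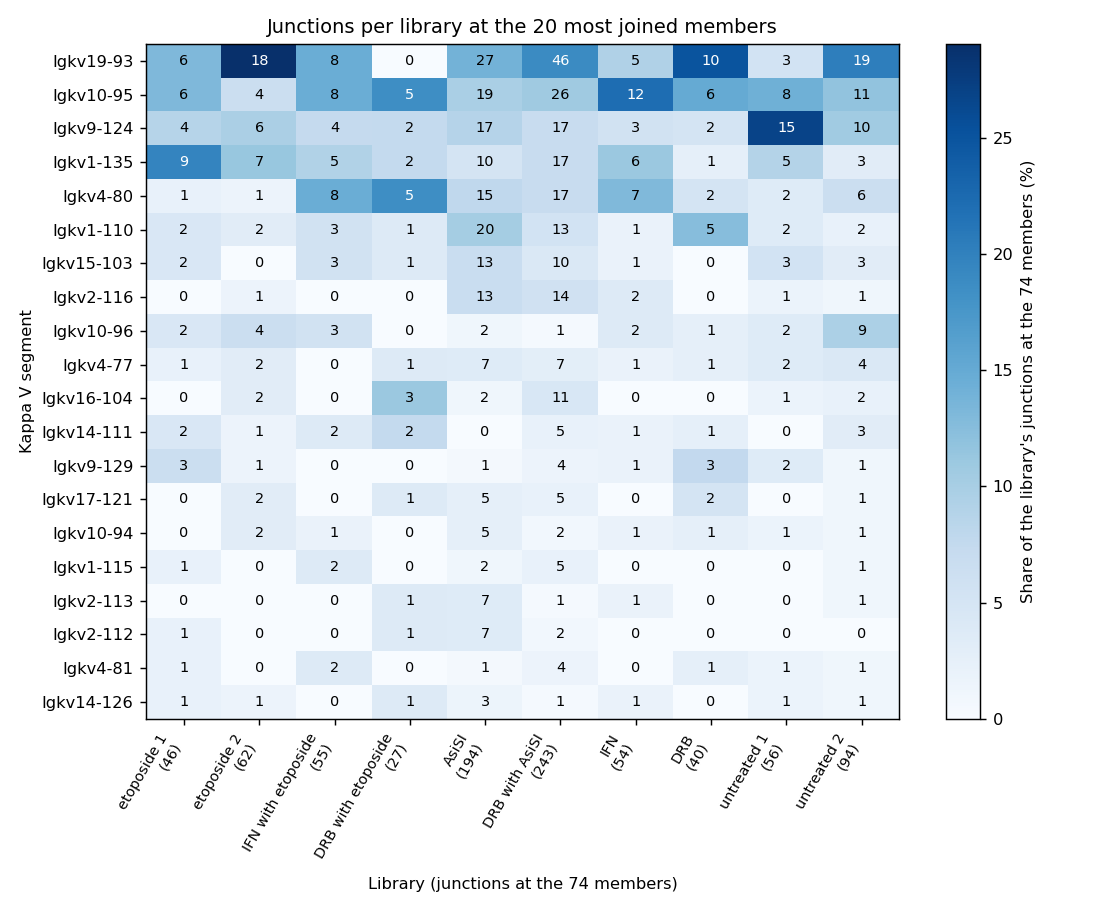
Junctions per library (columns, with the library's total at the 74 members in brackets) at the 20 most joined members (rows); the number in a cell is the count and the shade is its share of that library's member junctions in percent. Igkv19-93 is at 0 in DRB with etoposide and at 18 in etoposide replicate 2, and the darkest cell of Igkv9-124 is in untreated replicate 1.

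By family, which is the number before the dash and groups segments by sequence likeness, 5 of 14 families held most junctions. Family 1 had 149 junctions at 11 members, family 10 had 145 at 3, family 19 had 142 at its 1 member, family 4 had 123 at 13 and family 9 had 106 at 5. Per member these are 13.5, 48.3, 142, 9.46 and 21.2 junctions. Single segments made up most of these counts. Igkv1-135 and Igkv1-110 held 65 and 51 of the 149 in family 1, Igkv10-95 held 105 of 145, Igkv4-80 held 64 of 123 and Igkv9-124 held 80 of 106.

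The lesser families were family 2 with 66 junctions at 10 members, family 15 with 42 at 5, family 14 with 36 at 8, family 16 with 21 at 1 and family 17 with 19 at 2. Families 11, 13, 12 and 20 had 8, 6, 4 and 4, led by Igkv11-106 with 7, Igkv13-84 with 4, Igkv12-98 with 3 and Igkv20-101-2 with 4. Family 13 was the least used per member, at 0.60 junctions, with 8 of its 10 members at 0. Those 8 are all listed pseudogenes.

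Family 2 had 33 of its 66 junctions in AsiSI and 20 in DRB with AsiSI. In the other libraries it had 1 in each etoposide replicate, 1 in IFN with etoposide, 2 in DRB with etoposide, 3 in IFN, 1 in DRB, and 1 and 3 in untreated. Most of these were at Igkv2-116 (13 in AsiSI and 14 in DRB with AsiSI), Igkv2-112 (7 and 2) and Igkv2-113 (7 and 1). Family 2 was singled out after its values were seen, and no test was made on it.

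**Figure D3:**
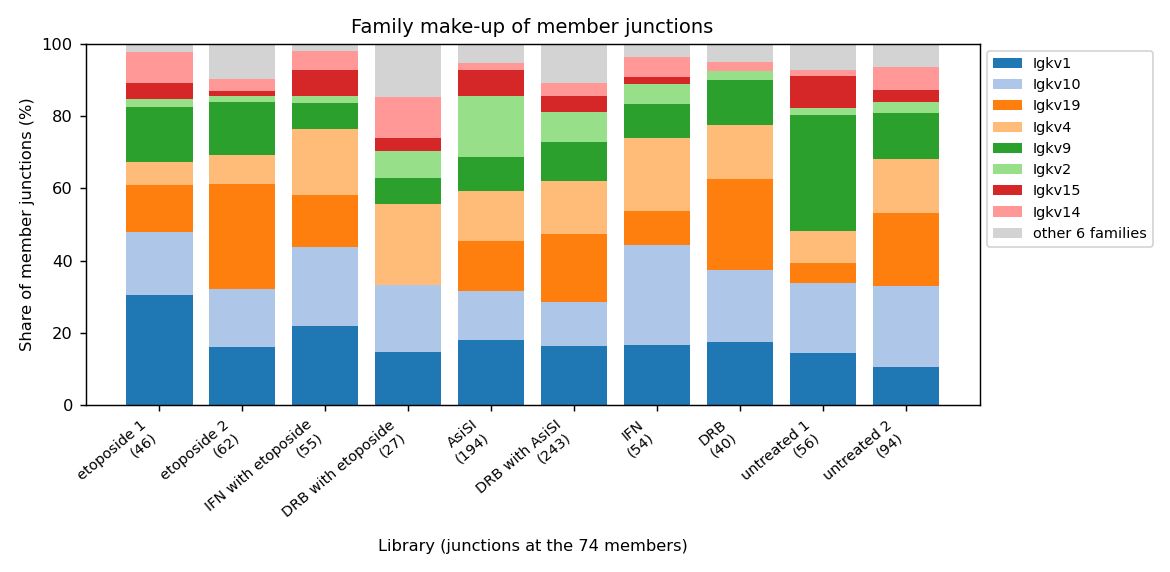
Share of member junctions by V family (vertical axis, percent of the junctions at the 74 members) in each library (horizontal axis, with the number of member junctions in brackets); colours are the 8 families with most junctions, and grey is the other 6. Family 19 is missing from DRB with etoposide, family 9 is widest in untreated replicate 1 and family 2 is widest in AsiSI.

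RefSeq lists 39 of the members as V segments and 35 as V pseudogenes. The V segments held 749 junctions (86.0%), with a median of 5, and 34 of the 39 were joined. The pseudogenes held 122 junctions (14.0%), with a median of 1, and 18 of the 35 were joined. Igkv2-116 and Igkv4-77 had 32 and 26 of the 122. By library, pseudogenes took 10.9% and 11.3% of member junctions in etoposide, 10.9% in IFN with etoposide, 11.1% in DRB with etoposide, 19.1% in AsiSI, 15.2% in DRB with AsiSI, 13.0% in IFN, 2.50% in DRB, and 14.3% and 11.7% in untreated. The exact binomial interval of AsiSI (13.8% to 25.3%) overlaps that of untreated replicate 2 (5.99% to 20.0%) but lies above that of DRB, where 1 of 40 junctions was at a pseudogene (0.0633% to 13.2%). AsiSI and DRB were the highest and the lowest of all libraries. Igkv2-116 alone held 13 of the 37 pseudogene junctions in AsiSI. No test was made on this share.

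Prey reads at the members ran in both directions. The share on the plus strand of chromosome 6 was 54.3% and 59.7% in etoposide, 50.9% in IFN with etoposide, 48.1% in DRB with etoposide, 54.1% in AsiSI, 58.4% in DRB with AsiSI, 59.3% in IFN, 45.0% in DRB, and 44.6% and 56.4% in untreated. Set against the strand of the segment, the 2 directions were unequal. Plus-strand members had 182 prey reads on the plus strand and 239 on the minus strand, and minus-strand members had 113 on the minus strand and 237 on the plus strand. A read that ran along the strand of the segment was counted as signal-end, and one that ran against it as coding-end. This put 295 of the 771 junctions (38.3%) on the signal-end side and 476 on the coding-end side. Side was set by direction alone, whatever the position. Of the 295 and the 476, 72 and 50 lay on the wrong side of the signal border for such an end.

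The signal-end share was 43.2% at plus-strand members and 32.3% at minus-strand members. By library it was 31.7% and 37.5% in etoposide, 40% in IFN with etoposide, 34.6% in DRB with etoposide, 40% in AsiSI, 41.2% in DRB with AsiSI, 32.6% in IFN, 28.6% in DRB, and 40.4% and 36.9% in untreated. Coding-end junctions were thus in the majority in each of the 10 libraries. The exact binomial 95% interval stayed below 50% in 6 libraries, etoposide replicate 1 (18.1% to 48.1%), AsiSI, DRB with AsiSI, IFN, DRB and untreated replicate 2 (26.6% to 48.1%). These intervals treat each junction as independent and hold no spread between libraries. Reads without molecular identifiers may not be independent molecules, so the intervals may be too narrow. The share was 38.5% without run A and 37.04% over the 683 junctions at members oriented by 2 or 3 features.

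Pooled over libraries, the balance of ends was uneven between members. Igkv4-80 had 16 signal-end and 48 coding-end junctions (25% on the signal side, interval 15.02% to 37.4%), Igkv19-93 had 39 and 103 (27.5%), Igkv1-110 had 15 and 36 (29.4%), and Igkv10-95 had 39 and 66 (37.1%). Igkv9-124 had 32 and 48 (40%). Igkv15-103 had 20 and 16 (55.6%). Igkv1-135 had 37 and 28 (56.9%, interval 44.0% to 69.2%), and its signal-side share was highest in the AsiSI libraries. It had 8 signal-end and 2 coding-end junctions in AsiSI and 13 and 4 in DRB with AsiSI, against 16 and 22 (42.1%) over the other 8 libraries. Among those 8, the signal side also led in etoposide replicate 2 (5 and 2) and IFN (4 and 2). It was level in DRB with etoposide and trailed in the rest. Igkv1-110 differed the other way, with 7 and 26 (21.2%) over both AsiSI libraries and 8 and 10 (44.4%) over the other 8. Igkv4-80 had 8 and 24 in each of these sets, and Igkv19-93 had 31.5% over both AsiSI libraries and 23.2% over the other 8. The pooled shares thus depend on which libraries supplied the junctions, and the differences between members were not tested.

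**Figure D4:**
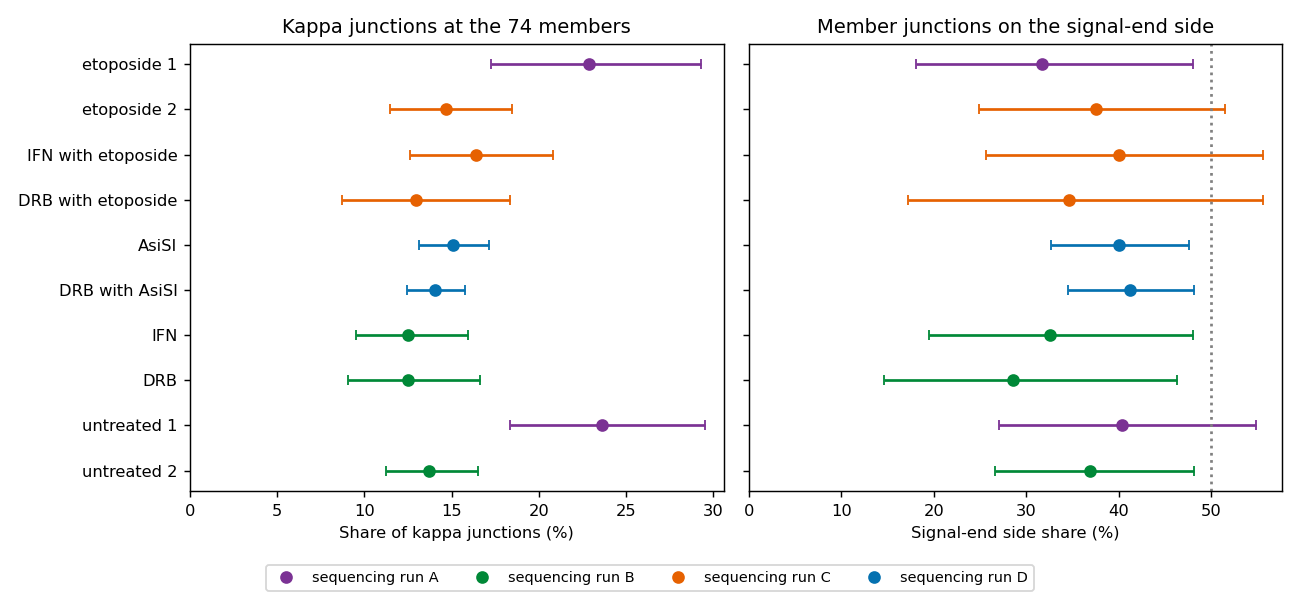
Left, share of kappa locus junctions at the 74 members (percent); right, share of oriented member junctions on the signal-end side (percent), for each of the 10 libraries from etoposide at the top to untreated at the bottom. Points are libraries coloured by sequencing run, bars are exact binomial 95% intervals and the dotted line marks 50%; the libraries of run A lie highest at the left, at 22.9% and 23.6%, and all points at the right lie below 50%.

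Most oriented members entered these counts because pooled reads covered their heptamer or nonamer, so reads near the signal were in part a condition of entry, and the shares near it are a description of the oriented members. Within 50 bp of the signal border lay 179 of 421 junctions at plus-strand members (42.5%) and 172 of 350 at minus-strand members (49.1%). Within 50 bp of the other end lay 11 and 7. At the 4 members oriented by the start codon alone (Igkv2-112, Igkv11-106, Igkv1-88 and Igkv15-97), whose signal had not been read, 6 of 25 junctions (24.0%) were near the signal border and 5 near the other end, against 345 of 746 (46.2%) near the border at members whose signal was read. Signal-end junctions were mostly inside or behind the signal, at 223 of 295 (75.6%), with a median of 36 bases missing from the signal end. Coding-end junctions were mostly on the coding side of the border, at 426 of 476 (89.5%), with a median of 57.5 bases missing from the coding end.

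**Figure D5:**
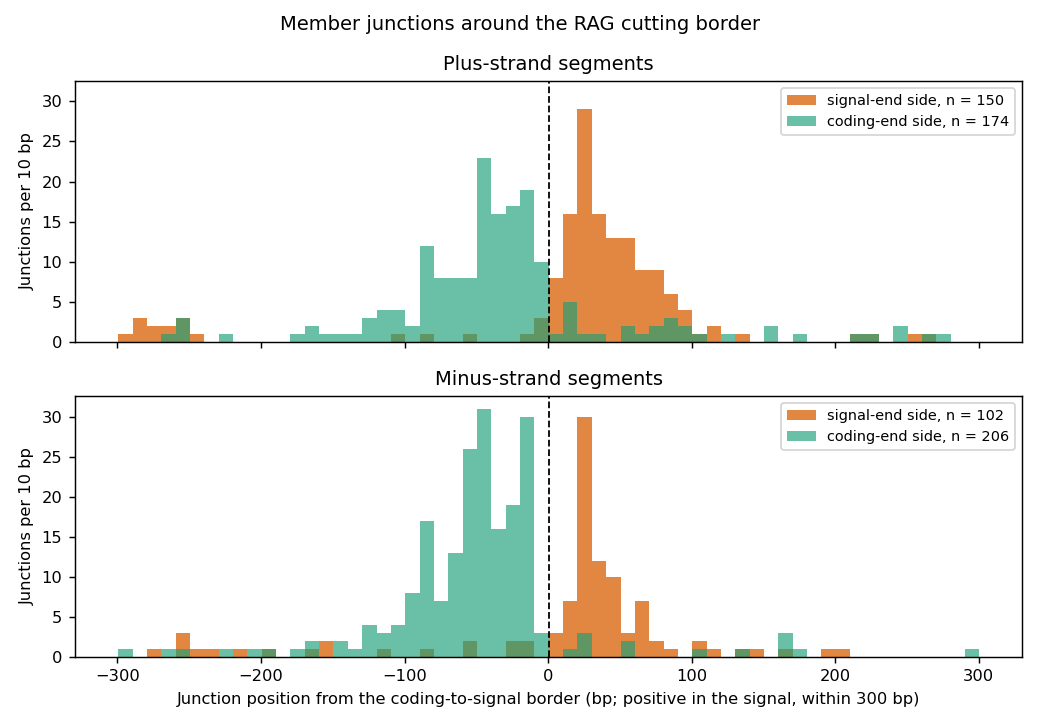
Junctions per 10 bp (vertical axis) by position from the border between coding sequence and signal (horizontal axis, bp, positive in the signal and behind it, within 300 bp) at plus-strand members (top) and minus-strand members (bottom); colours separate signal-end from coding-end junctions and the dashed line is the border. Signal-end junctions gather to the right of the border and coding-end junctions to its left in both panels.

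Full-length ends were rare, with 4 signal-end and 2 coding-end junctions that lacked no base. Up to 20 bases were missing in 37 of 223 signal-end junctions and 68 of 426 coding-end junctions, and more than 100 in 25 and 129. Single members departed from the common pattern. At Igkv15-103 only 7 of 36 junctions (19.4%) were near the border, and the median position of its signal-end junctions was -267 bp, inside the segment. At Igkv11-106, a listed pseudogene oriented by its start codon alone, 0 of 7 were near the border. At Igkv9-129 it was 12 of 16 (75%), and at Igkv4-77 16 of 26 (61.5%).

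The junction sequences that follow show both ends at the leading 2 members. Each starts in the bait and ends in the prey, 5′ to 3′, and the capitals mark the bases that bait and prey share, so that their origin cannot be told apart.
Igkv19-93 signal end: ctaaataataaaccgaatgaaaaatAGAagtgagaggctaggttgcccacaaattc
Igkv19-93 coding end: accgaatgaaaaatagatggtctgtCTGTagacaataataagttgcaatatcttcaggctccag
Igkv10-95 signal end: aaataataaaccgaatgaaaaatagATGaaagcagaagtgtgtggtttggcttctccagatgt
Igkv10-95 coding end: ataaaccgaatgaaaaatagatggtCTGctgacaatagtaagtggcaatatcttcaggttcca

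The prey of the Igkv19-93 signal-end junction starts at position 68736256 of chromosome 6 (minus strand, 40 bases missing, 2 junctions in 2 libraries), and that of its coding-end junction at 68736314 (plus strand, 17 bases missing, 5 junctions in 4 libraries). The prey of the Igkv10-95 signal-end junction starts at 68680880 (plus strand, 31 bases missing, 3 junctions in 3 libraries), and that of its coding-end junction at 68680831 (minus strand, 17 bases missing, 6 junctions in 4 libraries). At both members the signal-end prey begins beyond the nonamer, and the coding-end prey reads back into the V sequence. Such shared bases were common. Of the 871 junctions, 727 (83.5%) shared at least 1 base, with a median of 3, while 94 (10.8%) had an insert and 50 (5.74%) were blunt.

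The share with common bases was 85.8% of signal-end and 83.6% of coding-end junctions. By library it was 76.1% and 77.4% in etoposide, 87.3% in IFN with etoposide, 100% in DRB with etoposide (27 of 27, interval 87.2% to 100%), 85.1% in AsiSI, 84.0% in DRB with AsiSI, 83.3% in IFN, 80% in DRB, and 87.5% and 78.7% in untreated. The median was 3 shared bases in each of the 10 libraries.

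The same join positions came up in more than 1 library. The 871 junctions fell at 730 distinct positions and strands, of which 79 were found in 2 or more libraries, with 208 junctions between them, and at most in 5. Within a library, 33 junctions repeated a position and strand already seen there. Of the 871, 489 (56.1%) lay inside the annotated span of the segment. In the last 100 bp inside the 500-bp limit lay 23 junctions and in the 100 bp just outside it 41.

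The question put to etoposide was whether trapped topoisomerase II cuts change the joining of these segments. Per 1000 junctions within 1 Mb of the bait, member junctions numbered 38.4 and 15.4 in etoposide, against 49.8 and 17.8 in untreated. Both run A libraries were high, 1 in each group, and the groups overlapped on this scale. The log2 difference was -0.29 (exact permutation test, two-sided, p = 0.667, where 0.333 is the smallest p that 2 against 2 libraries allow). Within replicate 1, both from run A, the ratio of etoposide to untreated was 0.771 (95% interval 0.522 to 1.14), and within replicate 2 it was 0.867 (0.629 to 1.19). Per 1000 junctions farther than 1 Mb from the bait the groups did not overlap, with 4.37 and 16.7 in etoposide against 61.2 and 89.1 in untreated (log2 difference -3.11, exact permutation p = 0.333). Such junctions numbered 10521 and 3721 in etoposide, against 915 and 1055 in untreated. Member junctions themselves numbered 46 and 62 in etoposide, against 56 and 94 in untreated. A lower value on this scale is therefore not by itself a measure of fewer cut segments. Cells with a cut segment and cuts per cell cannot be told apart in such bulk DNA.

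As a share of kappa junctions the members had 22.9% and 14.7% in etoposide, against 23.6% and 13.7% in untreated. The means were 18.8% ± 5.79 in etoposide and 18.7% ± 7.005 in untreated (SD, n = 2 each, exact permutation p = 1). The signal-end share averaged 34.6% ± 4.10 in etoposide and 38.6% ± 2.46 in untreated (SD, n = 2 each, exact permutation p = 0.667). No difference was detectable in either share with 2 libraries a group.

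The share within 50 bp of the signal border was 39.0% and 51.8% in etoposide, against 55.8% and 32.1% in untreated. It was 16.7 points lower in etoposide within replicate 1 (difference -16.7) and 19.6 points higher within replicate 2. The groups overlapped fully (exact permutation p = 1). Within replicate 2, whose libraries were from different runs, Fisher's exact test gave p = 0.0231, which was 0.138 after Benjamini-Hochberg adjustment over the 6 within-replicate tests.

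Segment by segment, limma with voom weights tested the 17 Igkv segments that had at least 10 junctions in the 4 libraries. It called none of them, 0% of the 17, and none had an unadjusted p under 0.05. Of the 74 members only 6 passed the filter, and their log2 fold changes of etoposide over untreated ran from -0.99 for Igkv4-80 to 0.83 for Igkv19-93. The smallest adjusted p was 0.922. With the junctions farther than 1 Mb from the bait as library size, limma called 4 of the 17, 1 of them a member, 7 had an unadjusted p under 0.05, and the median log2 fold change over the 17 was -3.06, against 0.03 with kappa junctions as library size. With kappa junctions the median log2 fold change over the 6 members was 0.27. Igkv1-135 was at 0.60 ± 0.81 (SE), from 9 and 7 junctions in etoposide and 5 and 3 in untreated, and Igkv9-124 at 0.03 ± 0.63 from 4 and 6 against 15 and 10.

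Transcription block, the IFN condition and AsiSI had 1 library each, and a test on them speaks of those libraries rather than of the treatment. The member share of kappa junctions was 16.4% in IFN with etoposide, 13.0% in DRB with etoposide, 15.1% in AsiSI, 14.0% in DRB with AsiSI, 12.5% in IFN and 12.5% in DRB. Over 8 pairs, with replicate 2 as the etoposide or untreated library, Fisher's exact test called no difference in this share (adjusted p of 0.717 to 0.894) or in the signal-end share (0.959 to 1). The widest gap in the share of kappa junctions was 3.95 points, between 16.4% in IFN with etoposide and 12.5% in IFN (odds ratio 1.38, 95% interval 0.919 to 2.07).

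The labels name etoposide replicate 1 as the control of both etoposide combinations. Against that run A library the member share of kappa junctions was lower in DRB with etoposide (13.0% against 22.9%, odds ratio 0.503, Fisher's exact test, adjusted p = 0.0197), and in IFN with etoposide it was 16.4% against 22.9% (odds ratio 0.662, adjusted p = 0.110). Against untreated replicate 1, also of run A, the odds ratios were 0.461 for IFN, 0.462 for DRB and 0.573 for AsiSI (Fisher's exact test, adjusted p of 0.00234, 0.00264 and 0.00422). These differences were found with the run A libraries alone. The part of the longer alignments of run A in them was not tested.

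Single segments were also compared in each pair by Fisher's exact test over all Igkv segments with at least 10 junctions in the pair, a test added after the data were seen. The filter was on the sum of both libraries, so a segment could pass through the library where it was high. Between DRB with etoposide and etoposide replicate 2, from the same run, 1 of 7 segments (14.3%) was called, and it was Igkv19-93, with 0 of 208 kappa junctions in DRB with etoposide against 18 of 422 in etoposide replicate 2 (4.27%, adjusted p = 0.00910). Against DRB, Igkv19-93 had 0 in DRB with etoposide and 10 in DRB (adjusted p = 0.0537), and 0 of 7 segments were called, with 1 at an unadjusted p under 0.05. Against etoposide replicate 1, where Igkv19-93 had 6 junctions and was below the filter, 0 of 6 were called, with 1 at an unadjusted p under 0.05. Igkv19-93 was thus missing from DRB with etoposide and present in the other 9 libraries. It passed the filter only through the counts of etoposide replicate 2 or of DRB, and its call describes the libraries compared only.

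Between AsiSI and untreated replicate 2, 7 of 22 segments (31.8%) were called, and 2 of the 10 members tested were among them. Igkv1-110 was higher, with 20 junctions in AsiSI (1.55% of kappa junctions) and 2 in untreated replicate 2 (0.292%, Fisher's exact test, adjusted p = 0.0360). Igkv10-96 was lower, with 2 in AsiSI (0.155%) and 9 in untreated replicate 2 (1.31%, adjusted p = 0.00818). Igkv2-116 had 13 and 1 (adjusted p = 0.108). The member share of calls is no higher than that over all segments. Igkv1-110 was at 0.844% in untreated replicate 1 and was not called against it (adjusted p = 0.799), and Igkv10-96, with 2 in each library, was below the filter there.

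Against untreated replicate 1 a different member was called. Igkv9-124, with 15 junctions there (6.33% of kappa junctions), was lower in IFN (3 junctions, 0.693%), DRB (2, 0.625%) and AsiSI (17, 1.32%), with adjusted p of 0.000394, 0.00175 and 0.000463 by Fisher's exact test. In these comparisons 2 of 12 (16.7%), 2 of 10 (20%) and 5 of 20 segments (25%) were called. In untreated replicate 2 Igkv9-124 had 10 of 685, and no comparison with that library called it. In the other 5 pairs, counted with replicate 2 as the control, no segment was called, among them DRB with AsiSI against AsiSI with 26 segments tested, 11 of them members. At an unadjusted p under 0.05 they had 2 segments in all, both in IFN against untreated replicate 2 and neither a member.

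The balance of ends was set against other kappa V segments within each library. The signal-end share averaged 36.4% ± 4.31 at the members and 44.3% ± 7.21 at the 5 set-aside segments (SD over 10 libraries). It was lower at the members in 9 of 10 libraries, by a mean of -8.00 points (exact sign-flip permutation test, two-sided, p = 0.0273, adjusted p = 0.105 over 4 tests). Proximal segments, of which 25 could be oriented, averaged 43.4% ± 11.9, and the members were lower in 8 of 10 libraries, with a mean difference of -7.09 points (p = 0.125, adjusted p = 0.167, same exact test). Neither difference passed the threshold after adjustment. Without run A, a setting added after the data were seen, they were -10.6 and -10.9 points, with an adjusted exact permutation p of 0.0313 each over the 8 libraries.

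The share within 50 bp of the signal border averaged 44.6% ± 9.73 at the members, against 42.3% ± 9.46 at the set-aside segments and 53.5% ± 6.12 at proximal segments (SD over 10 libraries). The difference from the set-aside segments was 2.32 points (exact sign-flip permutation p = 0.586). Among the set-aside segments Igkv11-114 stood apart, with 12 of its 230 junctions near the border (5.22%). It had 69 junctions in AsiSI and 84 in DRB with AsiSI. The share was 38.5% at Igkv1-117, 54.8% at Igkv11-125, 55.3% at Igkv17-127 and 57.4% at Igkv9-123. The difference without Igkv11-114 was not tested. The difference from proximal segments was -8.83 points, with the members lower in 8 of 10 libraries (exact sign-flip permutation p = 0.0527, adjusted p = 0.105).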

How the data were processed

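Each deposited file lists 1 translocation junction per row, with position, strand, read sequence and alignments and with no count, score or normalization, per the file headers. The standard LAM-HTGTS pipeline was used, per the labels' protocols, and the submitters' processing notes name bedtools, mm10 and GRCm38.p2. Junctions were counted per segment (68350 used, 83 off the main chromosomes left out). Segment positions came from RefSeq (GRCm38.p6, same chromosome coordinates as mm10). Segment strand came from the consensus of the reads, and segments without one were left out of counts by side. The kappa locus is the span from the first to the last annotated Igkv, Igkj or Igkc segment. Members and tests were chosen with earlier results of these data known. Named segments are the 20 most joined (a tie going to the lower position), the most joined of each other family, and every member that passed the limma filter.

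Tests were exact permutation and sign-flip tests over libraries, Fisher's exact test on junctions and limma 3.58.1 with voom (R 4.3.3, library size kappa junctions, at least 10 junctions a segment), each two-sided, with Benjamini-Hochberg adjustment at 0.05. Python 3.11.15, scipy 1.17.1, numpy 2.4.6, pandas 2.3.3 and matplotlib 3.10.9 were used. Assignment and the limma step were tested on simulated data. Alternatives changed the distance (200 and 1000 bp), repeats, denominators, filters, control library and libraries left out.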

Additional observations from a re-analysis of the deposited data

How the results depend on the processing

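Of 134 alternatives over 27 results, 19 turned the direction, 1 of them with a call (AsiSI against untreated replicate 1), 5 gained a call in the same direction and 2 moved a count by more than 1.5 times. The other 108 kept direction and side of the threshold or, for a count, stayed within 1.5 times, as did the segments called for AsiSI against untreated, 5 to 8 in place of 7. For etoposide against untreated, leaving out 1 library at a time moved the log2 rate difference between -1.03 and 0.45, the difference in the share of kappa junctions between -4.84 and 5.07 points, and that in the share near the signal border between -10.4 and 13.3 points. The share near the border also turned to -0.945 points with 200 bp, -0.257 with 1000 bp and -1.21 with a 20-bp border. In 16 odds ratios, 10 of 58 alternatives turned direction. For the share of kappa junctions, DRB with etoposide against DRB was 0.998 with 200 bp and 0.946 with 1000 bp, and IFN and DRB against untreated were 1.01 and 1.02 with 1000 bp. With control replicate 1 the odds ratios were 0.503 for DRB with etoposide, 0.662 for IFN with etoposide, 0.461 for IFN, 0.462 for DRB and 0.573 for AsiSI. For the signal-end share, DRB with etoposide against etoposide was 1.16 with 1000 bp and 1.14 with control replicate 1, and AsiSI against untreated was 0.994 with 200 bp and 0.984 with control replicate 1. The members' signal-end share minus that of set-aside and proximal segments was -10.6 and -10.9 points without run A, which passed. With etoposide replicate 1 as control, 0 segments were called against DRB with etoposide, and with junctions over 1 Mb from the bait as library size limma called 4 segments. On that scale the log2 rate difference was -3.11 (exact p = 0.333). The cause was not tested.

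With the replicate number as a block, limma again called 0 segments, and the block left the rate difference at -0.29 (exact permutation p = 0.5). That is the smallest p that 2 pairs allow, so this test could not have passed the threshold. Deviations of same-numbered libraries correlated at 0.48 over 17 segments. The labels name each untreated replicate as the control of the etoposide replicate of the same number. The replicate 1 pair also shared a run. The per-segment Fisher tests, the settings without run A and the strand check were added after seeing the data. With 201 to 433 kappa junctions in 7 of the 10 libraries, most members have counts too low for any test, and 22 members at 0 cannot be told from rare use.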
